A study of Sus scrofa with 6 samples.

Results

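The 10 genes described here are pig genes that carry only an Ensembl ID, out of 25322 IDs counted in each library. They were chosen by their counts in these same libraries, because their counts were near 0 or much lower in all 3 libraries of 1 breed, so their breed difference is given as a description with no test. The data are RNA-sequencing read counts from fat, liver and muscle of Berkshire pigs and of Korean native pigs, with 1 library for each breed and tissue and 6 in all. Berkshire is a breed of British origin kept for marbled pork, and the Korean native pig is a local black-coated breed. The labels give no age, sex or treatment, and do not say how many animals stood behind the 3 libraries of a breed. All 6 titles carry the letter A, whose meaning is not stated. With no replicate libraries, any p-value below sets a difference against the departure of these libraries from the fit, in part borrowed from other genes. It does not measure a spread among animals, and each breed may be a single animal.

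An Ensembl ID without a symbol is a gene model that was placed on the genome from transcript or protein alignments and had not been tied to a named gene. A read is counted for such a model only when it aligns to that place on the reference genome, which was built from a pig of the Duroc breed. The count therefore reflects the RNA of the tissue together with how well the reads of an animal align to that one reference. None of the 10 IDs had an entry in the gene tables used here (0 of 10), so no function, position or sequence is given for them.

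A library held 5897410 to 7912090 counts on genes. Levels are CPM, counts relative to library size, scaled by TMM factors, which adjust for a few very abundant genes taking up a library. On that scale 3 counts, the floor set in place of a count of 0, correspond to 0.294 to 0.692 CPM. A fold given as "at least" divides the measured level by that floor. The floor is below the upper end of the two-sided exact interval for 0 counts, so the lower limit of the exact 95% interval of the ratio is given beside such folds. Intervals in brackets are exact 95% intervals, and both cover counting error only. Transcript lengths of the 10 genes were not used here, so levels are compared within a gene and not between genes. The tissue labels were borne out by marker genes. ALB (albumin) reached 176485 CPM in the Berkshire liver library and 212897 CPM in the Korean native one, with at most 52.6 CPM elsewhere, ACTA1 (skeletal actin) reached 49067 and 71091 CPM in muscle, and PLIN1 (a lipid droplet coat protein) 1096 and 621 CPM in fat against 1.16 to 95.7 CPM elsewhere. Of 15 reference genes such as ACTB, GAPDH and YWHAZ, 10 were matched, their fitted breed differences lay between -0.41 and 0.70 on the log2 scale, and 0 passed the edgeR test. Within a tissue, 1 of their 30 pairs was at least 4-fold apart, PGK1 in muscle, at 329 CPM in Berkshire and 1908 CPM in Korean native.

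Of the 10 genes, 8 were lower in the Korean native libraries and 2 were lower in the Berkshire libraries. Each kept its direction in fat, liver and muscle. In the 30 libraries that this gives for the lower breed, 13 held 0 counts, 7 held 1 to 3 counts and 10 held 4 counts or more, the highest count being 37. Of the 30 pairs of gene and tissue, 28 were at least 4-fold apart, with a count of 0 raised to 3. The 2 remaining pairs were muscle of ENSSSCG00000028909 and of ENSSSCG00000030868, where even the higher breed had only 5 and 4 counts.

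**Figure D1:**
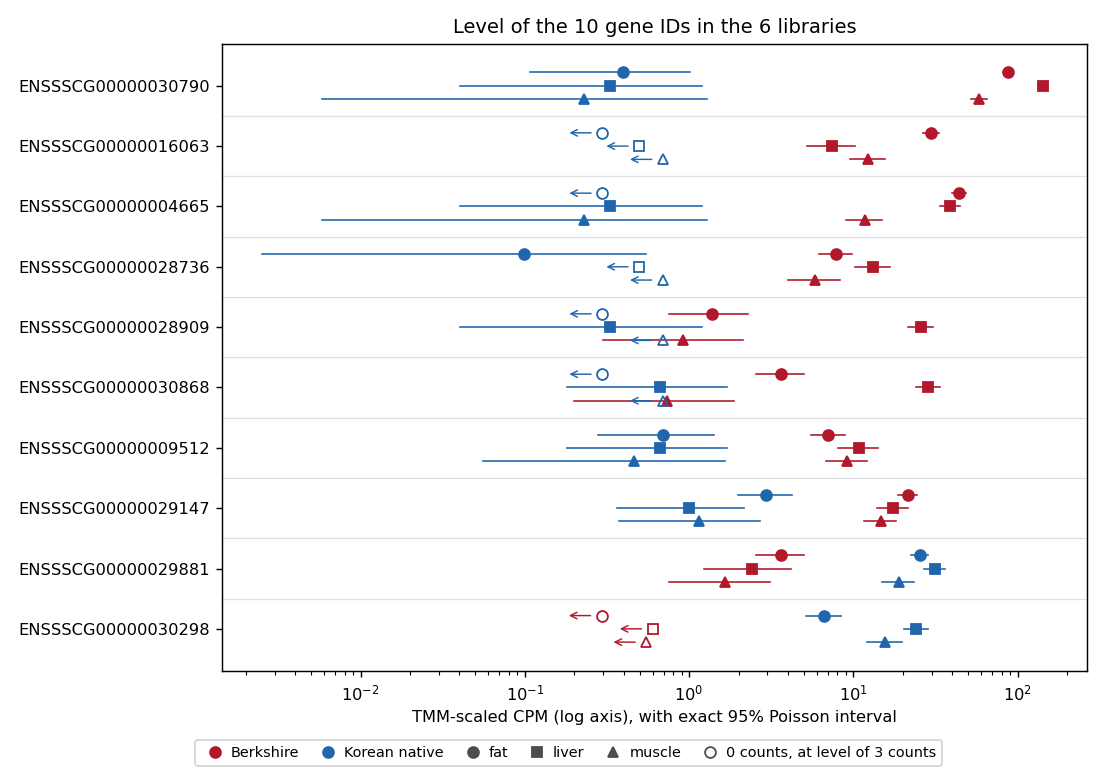
TMM-scaled CPM (log axis) of each of the 10 gene IDs in the 6 libraries, with colour for breed, symbol for tissue and lines for exact 95% Poisson intervals; an open symbol with an arrow is a library with 0 counts, drawn at the level of 3 counts. The 8 upper IDs lie to the right in Berkshire and the 2 lower IDs to the right in Korean native libraries, and the intervals of ENSSSCG00000028909 and ENSSSCG00000030868 in muscle reach the floor.

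ENSSSCG00000030790 had the highest counts of the 10, with 891, 713 and 320 counts in Berkshire fat, liver and muscle and 4, 2 and 1 counts in the Korean native libraries. Its level was 87.3, 143 and 58.6 CPM in the Berkshire libraries and 0.394, 0.331 and 0.231 CPM in the Korean native ones. The ratio was 221 (86.1 to 814) in fat, 430 (119 to 3561) in liver and 254 (45.3 to 10061) in muscle. The intervals of the 3 ratios overlapped. All 3 Korean native libraries held a few reads, so the gene was not at 0 in any tissue.

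ENSSSCG00000016063 had 304, 37 and 67 counts in Berkshire fat, liver and muscle, or 29.8, 7.40 and 12.3 CPM. All 3 Korean native libraries had 0 counts. Against the level of 3 counts in each Korean native library, the Berkshire level was at least 101-fold higher in fat, 14.9-fold higher in liver and 17.7-fold higher in muscle. The exact lower limits of these ratios were 81.4, 11.5 and 14.02. No other gene of the 8 was at 0 in all 3 Korean native libraries.

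ENSSSCG00000004665 gave 449, 194 and 64 counts in Berkshire fat, liver and muscle (44.0, 38.8 and 11.7 CPM) and 0, 2 and 1 counts in the Korean native libraries. Berkshire fat was at least 149-fold higher (exact lower limit 120), and the ratio was 117 (32.0 to 974) in liver and 50.8 (8.79 to 2037) in muscle. ENSSSCG00000028736 gave 80, 66 and 32 counts in Berkshire (7.83, 13.2 and 5.86 CPM) against 1, 0 and 0. Its ratio in fat was 79.5 (13.9 to 3177), and Berkshire was at least 26.6-fold higher in liver and 8.46-fold higher in muscle (exact lower limits 21.0 and 6.49). In both genes the counting intervals of the 2 libraries did not overlap in any tissue, which follows from how the genes were chosen.

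ENSSSCG00000028909 and ENSSSCG00000030868 were counted mainly in Berkshire liver. The first had 14, 129 and 5 counts in Berkshire fat, liver and muscle (1.37, 25.8 and 0.915 CPM), and 0, 2 and 0 in Korean native. The second had 37, 143 and 4 counts (3.62, 28.6 and 0.732 CPM), and 0, 4 and 0 in Korean native. In liver the ratios were 77.9 (21.1 to 650) and 43.2 (16.5 to 161). The few Korean native reads of both genes came from liver, the tissue in which the Berkshire level was highest. In fat Berkshire was at least 4.64-fold and 12.2-fold higher (exact lower limits 3.29 and 9.47). In muscle the folds over the floor were only 1.32 and 1.06, with exact lower limits of 0.727 and 0.524, so no breed difference was detectable there at this depth.

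ENSSSCG00000009512 and ENSSSCG00000029147 were counted at a low level in all 3 Korean native libraries, the first below 1 CPM in each. ENSSSCG00000009512 had 72, 54 and 50 counts in Berkshire fat, liver and muscle (7.05, 10.8 and 9.15 CPM) and 7, 4 and 2 counts in Korean native (0.690, 0.663 and 0.461 CPM), with ratios of 10.22 (4.71 to 26.3), 16.3 (6.01 to 62.0) and 19.8 (5.21 to 168). ENSSSCG00000029147 had 219, 87 and 80 counts (21.4, 17.4 and 14.6 CPM) against 30, 6 and 5 (2.96, 0.994 and 1.15 CPM). Its ratios were 7.25 (4.94 to 11.0) in fat, 17.5 (7.73 to 49.0) in liver and 12.7 (5.22 to 40.2) in muscle. Korean native fat thus held more of this transcript than the other Korean native libraries, and the intervals of its 3 ratios overlapped.

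In the opposite direction, no read of ENSSSCG00000030298 was counted in Berkshire (0 in each of 3 libraries), while Korean native fat, liver and muscle gave 67, 146 and 68 counts (6.61, 24.2 and 15.7 CPM). Korean native was at least 22.5-fold higher in fat, 40.3-fold higher in liver and 28.6-fold higher in muscle, measured against 3 counts in each Berkshire library, with exact lower limits of 17.8, 32.4 and 22.6. ENSSSCG00000029881 was counted in every library. It had 257, 189 and 82 counts in Korean native (25.3, 31.3 and 18.9 CPM) and 37, 12 and 9 counts in Berkshire (3.62, 2.40 and 1.65 CPM), with ratios of 6.99 (4.94 to 10.16) in fat, 13.0 (7.29 to 25.7) in liver and 11.5 (5.76 to 26.0) in muscle. The smallest ratio of this gene was again in fat, as for ENSSSCG00000029147, and again the 3 intervals overlapped.

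The fitted breed difference over all 3 tissues, Korean native minus Berkshire, followed these counts. It was -8.08 ± 0.39 (SE) on the log2 scale for ENSSSCG00000030790, -7.64 ± 0.68 for ENSSSCG00000004665, -7.09 ± 0.68 for ENSSSCG00000028736, -6.19 ± 0.66 for ENSSSCG00000028909 and -5.69 ± 0.62 for ENSSSCG00000030868. ENSSSCG00000009512 and ENSSSCG00000029147 had smaller values, -3.77 ± 0.42 and -3.42 ± 0.37, and ENSSSCG00000029881 had 3.28 ± 0.32. For the 2 genes at 0 in a whole breed the fitted value depends on the prior count, and the folds over the floor stand in its place. All 10 genes were among the 15 of 13810 tested genes that edgeR called for breed (0.109%), which is the contrast on which they were chosen. That count restates the choice and is no test of it.

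**Figure D2:**
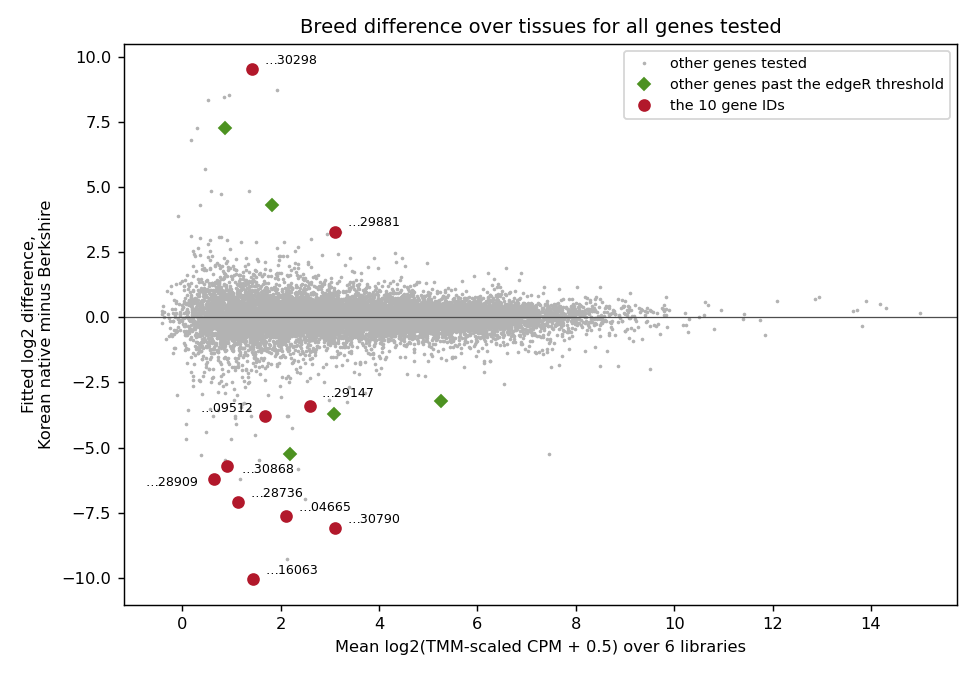
Fitted log2 difference (Korean native minus Berkshire) against mean log2(TMM-scaled CPM + 0.5) over the 6 libraries, 1 point per tested gene, with the 10 IDs as red circles labelled by their last 5 digits and the 5 other called genes as green diamonds. The 8 lower IDs lie between -3.42 and the foot of the plot, and the values of ENSSSCG00000016063 and ENSSSCG00000030298, which were at 0 in a breed, depend on the prior count.

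How many other genes had this pattern depended on the cut-offs. A looser rule, at most 2 CPM in 1 breed and at least 2 CPM in the other, was met by 22 of 25322 IDs lower in Korean native and 12 higher. Of these, 5 and 1 were among the 10. The main rule was stricter. At most 1 CPM in all 3 Korean native libraries with at least 5 CPM in all 3 Berkshire libraries was met by 5 of 25322 IDs (0.0197%). All 5 were among the 8 lower genes, namely ENSSSCG00000030790, ENSSSCG00000016063, ENSSSCG00000004665, ENSSSCG00000028736 and ENSSSCG00000009512. The mirrored pattern was met by 1 ID (0.00395%), ENSSSCG00000030298. ENSSSCG00000028909 and ENSSSCG00000030868 fell outside through their low Berkshire fat and muscle, ENSSSCG00000029147 through its Korean native level of up to 2.96 CPM, and ENSSSCG00000029881 through its Berkshire level of up to 3.62 CPM. Just inside was ENSSSCG00000028736, with a lowest Berkshire level of 5.86 CPM. Just outside was ENSSSCG00000016345, at 4.80 (fat), 10.6 (liver) and 3.84 CPM (muscle) in Berkshire and with 2, 0 and 0 counts in Korean native.

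A wider rule, at least 4-fold apart in each of the 3 tissues, was met by 16 of 13810 tested genes lower in Korean native (0.116%) and by 11 higher (0.0797%). These held 6 of the 8 lower genes and both higher ones. The other 19 genes under that rule included the named genes PCK1, CYP2A19, SPHK2 (a sphingosine kinase), RER1 (a protein that returns membrane proteins to the endoplasmic reticulum), NDUFA6 (a subunit of respiratory complex I) and TOPAZ1. SPHK2 came close to the unnamed genes, with 36, 48 and 18 counts in Berkshire fat, liver and muscle and 0, 1 and 1 in Korean native.

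Complete absence of reads ran mostly the other way. At 0 counts in all Korean native libraries and at least 3 in each Berkshire library there were 3 of 25322 IDs (0.0118%), ENSSSCG00000016063, ENSSSCG00000003278 and MMRN2 (an endothelial matrix protein, 27, 4 and 8 counts in Berkshire fat, liver and muscle). At 0 counts in all Berkshire libraries there were 11 (0.0434%), of which ENSSSCG00000030298 had the most reads, with 281 in all. Next to it stood ENSSSCG00000021574, for which Korean native fat, liver and muscle gave 45, 59 and 34 counts, then ENSSSCG00000023383, with 70, 25 and 32. Both this rule and the 4-fold one were chosen after the counts had been seen.

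Differences between tissues were not used to choose the genes, so they were tested with edgeR, using 1 fit to the 6 libraries with terms for both factors. The choice did ask for a breed gap in all 3 tissues. The spread in this fit is how far that gap varies between tissues, so the test is not fully independent of the choice. Against fat, 2 of the 10 genes rose in liver, ENSSSCG00000028909 and ENSSSCG00000030868, where 15.2% of all tested genes were called higher in liver. The log2 difference was 4.22 ± 0.60 (SE) for ENSSSCG00000028909 (edgeR adjusted p = 0.0026) and 3.12 ± 0.57 for ENSSSCG00000030868 (edgeR adjusted p = 0.0073). Against muscle the same 2 genes rose in liver, by 4.78 ± 0.68 (edgeR adjusted p = 0.0019) and 5.31 ± 0.75 (edgeR adjusted p = 0.0019), where 18.6% of all tested genes were called. Shares of 2 in 10 are near these backgrounds. Between muscle and fat edgeR called 0 of the 10, against 16.4% of all tested genes. There, 2 of the 10 had an unadjusted edgeR p under 0.05, ENSSSCG00000030868 and ENSSSCG00000004665. By p they ranked only 3720 and 4492 among the 13810 tested genes. DESeq2 called 0 of the 10, against 19.7% of all tested genes.

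The liver calls rested on the Berkshire libraries. For liver against fat, leaving out Berkshire fat gave adjusted p of 0.18 for ENSSSCG00000028909 and 0.071 for ENSSSCG00000030868, and leaving out Berkshire liver gave 0.34 and 0.15, with log2 differences of 4.14 to 5.08 in all 4 cases. Without the breed term the adjusted p was 0.12 and 0.23 for liver against fat and 0.11 for both genes for liver against muscle. For liver against muscle, leaving out Berkshire muscle ended both calls (edgeR adjusted p = 0.27 and 0.18, log2 4.24 and 4.99), and leaving out Berkshire liver ended that of ENSSSCG00000028909 (0.25, log2 4.74).

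**Figure D3:**
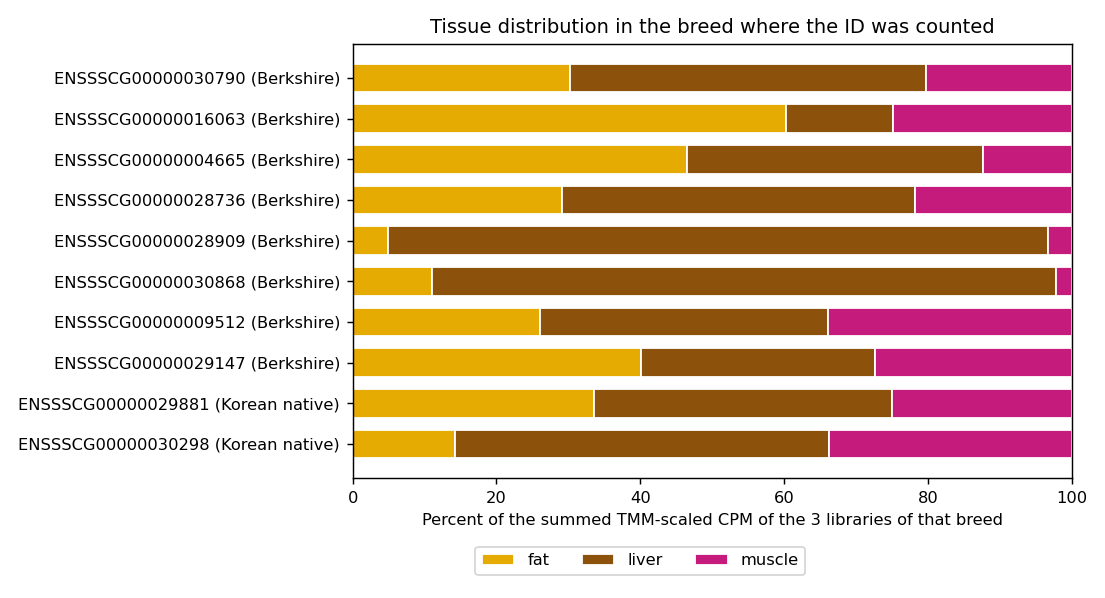
Share of each ID's summed TMM-scaled CPM that came from fat, liver and muscle, in percent, in the breed where it was counted (named on the axis, 1 library per tissue). Liver held 91.9% and 86.8% of ENSSSCG00000028909 and ENSSSCG00000030868, while the other 8 IDs had between 15.0% and 52.0% in liver.

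The other 8 genes were spread over all 3 tissues of the breed in which they were counted, and none passed a tissue test in the main fit. Without the filter, also with TMM factors, ENSSSCG00000016063 was called lower in liver than in fat (edgeR adjusted p = 0.028). In that fit ENSSSCG00000030298 was called higher in liver than in fat (edgeR adjusted p = 0.045). The largest share of ENSSSCG00000016063 was in Berkshire fat, at 60.2% of its summed CPM, with 24.8% in muscle and 15.0% in liver. Its liver level was 0.249 (0.172 to 0.351) of that in fat, and its edgeR adjusted p for liver against fat was 0.053, with the spread taken from other genes alone because 1 breed was at 0. With DESeq2's size factors in edgeR it lay at the threshold, with an adjusted p of 0.050 called as lower in liver. ENSSSCG00000004665 had 46.5% in fat and 41.1% in liver, with a ratio whose interval included 1 (liver over fat 0.883, 0.742 to 1.05), and 12.4% in muscle, where fat was 3.75-fold higher (2.88 to 4.96).

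ENSSSCG00000030790 and ENSSSCG00000028736 had nearly the same distribution, with 49.4% and 49.1% in liver, 30.2% and 29.1% in fat and 20.3% and 21.8% in muscle. Liver exceeded fat 1.63-fold (1.48 to 1.81) in the first and 1.69-fold (1.20 to 2.36) in the second. On total counts the same ratios were 0.800 (0.724 to 0.883) and 0.824 (0.586 to 1.16), so the order of liver and fat in these 2 genes rests on the TMM factors. The ratio of ENSSSCG00000004665 in the Berkshire libraries alone was below 1 on both scales. On total counts it was 0.432 (0.363 to 0.512), an interval that no longer included 1. ENSSSCG00000009512 and ENSSSCG00000029147 were the most even on the TMM scale, with no tissue above 40.1%. Liver over fat was 1.53 (1.06 to 2.21) in the first and 0.812 (0.626 to 1.04) in the second. On total counts these ratios were 0.749 (0.517 to 1.08) and 0.397 (0.306 to 0.511). Fat over muscle of ENSSSCG00000029147 was 1.46 (1.13 to 1.92), and 2.58 (1.99 to 3.38) on total counts, so its evenness rests on the TMM factors. Muscle and liver did not differ beyond counting error in either gene (liver over muscle 1.18, 0.789 to 1.77, and 1.19, 0.867 to 1.63).

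Among the genes counted in Korean native libraries, ENSSSCG00000029881 had 41.4% in liver, 33.5% in fat and 25.0% in muscle. Its liver over fat in the Korean native libraries was 1.236 (1.019 to 1.497), but 0.621 (0.512 to 0.752) on total counts. The order of liver and fat in this gene therefore also rests on the TMM factors. Of ENSSSCG00000030298, liver held 52.0%, muscle 33.7% and fat 14.2%, and its liver level was 3.66-fold (2.72 to 4.97) that of fat. Levels in fat relative to other tissues depend on the scaling. With total counts in place of TMM factors, fat rose against liver by 2.04-fold in Berkshire and 1.99-fold in Korean native, and against muscle by 1.76-fold and 2.07-fold. On that scale edgeR called 5 of the 10 genes between liver and fat, where 50.4% of all tested genes were called in either direction. Between muscle and fat it called 6, against 43.6% of all tested genes. In the fit to both breeds, 4 of the 10 changed direction between liver and fat (ENSSSCG00000030790, ENSSSCG00000004665, ENSSSCG00000028736 and ENSSSCG00000009512). ENSSSCG00000029881 did not change direction in that fit, with log2 differences of -0.057 with TMM factors and -1.06 with total counts. The median of all tested genes moved to -0.94 (liver against fat) and -0.98 (muscle against fat) on the log2 scale.

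Summed levels of marker genes of other cell types differed between the breeds to unequal degrees, and 0 of these genes passed the edgeR test for breed. HBB (beta globin) and ALAS2, 2 of 3 listed blood genes that were matched, summed to 2129 CPM in the liver library of Korean native, 247 CPM in that of Berkshire, and 75.7 to 185 CPM in the other 4 libraries. The 4 matched lymphocyte genes of 6 summed to 15.5 to 102 CPM in all libraries. The 3 matched macrophage genes of 4 summed to 114 CPM in fat, 422 CPM in liver and 82.2 CPM in muscle of Berkshire, against 215, 294 and 28.4 CPM in Korean native. In muscle the 4 matched adipocyte genes of 6 summed to 523 CPM in Berkshire and 315 CPM in Korean native. There PLIN1 was 5.06-fold, CIDEC 4.98-fold and LIPE 4.08-fold higher in Berkshire. PLIN4 was nearly level between the breeds, at 282 CPM in Berkshire muscle and 263 CPM in Korean native muscle (1.07-fold). The part of these cells in the levels of the 10 genes was not tested.

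As a measure of likeness, Pearson's r of log2(CPM + 0.5) was taken over the 6 libraries, a description that is set mainly by the gap between the breeds. ENSSSCG00000030790 and ENSSSCG00000028736 were each other's nearest gene of the 13810 tested (r = 0.998). ENSSSCG00000016345, just outside the near-absent rule, was the nearest gene outside the 10 for both (r = 0.989 and 0.996). Nearest to ENSSSCG00000030298 were ENSSSCG00000021574 (r = 0.998), likewise at 0 in Berkshire, and RER1 (r = 0.994). RER1 was counted in both breeds, with Berkshire fat, liver and muscle at 3.43, 4.00 and 3.29 CPM against 14.9, 27.7 and 17.8 CPM in Korean native.

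ENSSSCG00000028909 was nearest to BEX1 (r = 0.989), for which Berkshire fat, liver and muscle stood at 5.29, 25.2 and 5.31 CPM and the Korean native libraries at 1.68, 2.65 and 2.31 CPM. The nearest gene to ENSSSCG00000030868 was PES1 (r = 0.995), a ribosome assembly factor whose level varied only between 33.5 and 56.2 CPM. For ENSSSCG00000004665 it was CREBRF (r = 0.988), at 20.5 to 25.3 CPM in Berkshire and 13.7 to 16.2 CPM in Korean native. A high r therefore went with breed gaps of very different size.

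ENSSSCG00000016063, ENSSSCG00000004665 and ENSSSCG00000009512 had numbers below 18000, in a part of the ID series that follows gene order. There, 6102 of 6546 pairs of named genes with numbers at most 2 apart lay within 6 entries of each other in the RefSeq gene table for Sscrofa11.1, against 20 of 1063 pairs from 18000 on. The other 7 genes had numbers in the second range, which held 47.2% of all IDs and 33.7% of tested ones. The named genes numbered beside the first 3 therefore serve as a comparison, chosen after the counts had been seen. That the unnamed genes lie between them on the genome was not tested, since no entry of the table gives their position.

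**Figure D4:**
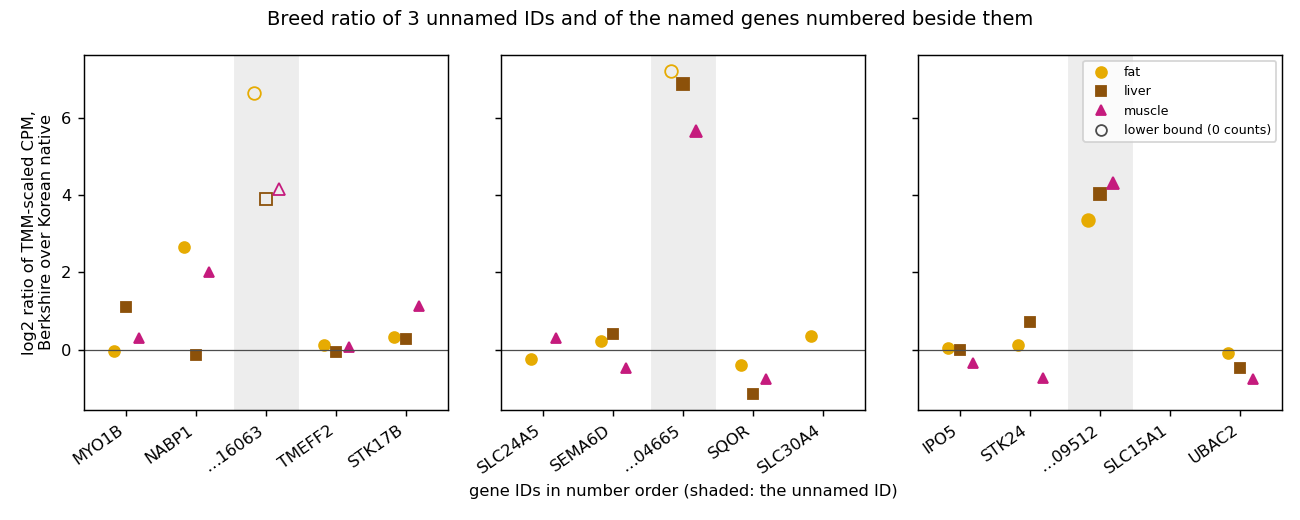
log2 ratio of TMM-scaled CPM, Berkshire over Korean native, for 3 unnamed IDs (shaded, labelled by their last 5 digits) and for the 2 named genes numbered before and after each, in fat, liver and muscle; pairs of named-gene libraries with fewer than 10 counts are left out and open symbols are folds over the floor of 3 counts. The shaded IDs lie above every named gene beside them, and only NABP1 in fat and muscle is at least 4-fold apart.

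The 12 named genes beside these 3 IDs were counted in both breeds. Of 36 pairs of gene and tissue, 30 had at least 10 counts in both libraries, and 2 of these were at least 4-fold apart. Both belonged to NABP1, a protein that binds single-stranded DNA, which is numbered directly before ENSSSCG00000016063. For NABP1, Berkshire fat, liver and muscle stood at 146, 32.4 and 53.4 CPM and the Korean native libraries at 23.3, 35.8 and 13.1 CPM, a ratio of 6.27 in fat and 4.07 in muscle, with Korean native 1.10-fold higher in liver. In Berkshire, NABP1 and ENSSSCG00000016063 had the same order of tissues, fat over muscle over liver. In Korean native liver NABP1 had 216 counts and ENSSSCG00000016063 had 0.

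In the 27 pairs of other genes with at least 10 counts in both libraries, the folds between breeds were 1.00 to 2.21 in either direction. Among the 6 pairs with fewer counts, SLC24A5 in liver (3 and 13 counts) was 3.59-fold and SLC30A4 in muscle (6 and 11 counts) 2.31-fold higher in Korean native. On the other side of ENSSSCG00000016063, TMEFF2 had 87, 127 and 29 counts in Berkshire fat, liver and muscle and 79, 159 and 22 in Korean native. SQOR, the mitochondrial sulfide oxidising enzyme numbered after ENSSSCG00000004665, had 309, 116 and 40 counts in Berkshire and 405, 308 and 54 in Korean native. STK24, a kinase numbered before ENSSSCG00000009512, had 669, 496 and 251 against 611, 362 and 332. Of the 12 genes 11 were tested for breed over tissues, and 0 passed in edgeR.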

How the data were processed

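RNA of fat, liver and muscle from Berkshire and Korean native pigs was sequenced in 6 libraries, each from 1 µg of total RNA, per the labels' protocols. Each deposited file holds unnormalized read counts for Ensembl IDs, which the authors made with TopHat, HTSeq 0.5.3p3 and the Sscrofa10.2 build, per the submitters' processing notes. Neither strand setting nor annotation release is given in the sources used here, so antisense reads cannot be told apart. The 5 closing entries that name no gene were left out. They list separately reads outside genes (45.9% to 52.5% of a library), without a unique alignment (14.1% to 20.8%) and in more than 1 gene (0.354% to 0.809%), so none of these reads is in a gene count. Symbols matched 11804 of 25322 IDs (46.6%).

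With edgeR 4.0.16 in R 4.3.3, genes were filtered by filterByExpr (13810 kept, all 10 members among them), scaled by TMM and fitted with tissue and breed terms, leaving 2 residual degrees of freedom. Two-sided quasi-likelihood tests were used, and a call is a Benjamini-Hochberg adjusted p under 0.05 over all tested genes. The SE was obtained by dividing the absolute log2 estimate by the root of its F statistic. Alternatives included DESeq2 1.42.0, other scalings and leaving out each library. Breed ratios within a tissue have no replicate and carry exact conditional binomial intervals.

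The members, gene lists and tests were chosen with earlier results of these data known. Genes named besides the 10 are those near-absent or 4-fold apart by the stated rules, the nearest by Pearson's r, list genes and, added after the counts were seen, genes numbered beside a member. Comparisons with neighbours by position and with the closest protein were planned and not run, because no table used here holds the members.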

Additional observations from a re-analysis of the deposited data

How the results depend on the processing

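The number of the 10 genes called for tissue depended on the settings. Between liver and fat it was 2, with 3 by DESeq2's size factors, 5 by total counts, 4 without a filter and 0 without the breed term, and 0 to 4 on leaving out 1 library. Without Berkshire fat it was 0, without Berkshire liver 1 and without Berkshire muscle or Korean native muscle 4. Between muscle and fat it was 0, with 6 by total counts and 0 on leaving out any library. Between liver and muscle it was 2, with 0 without the breed term and 0 to 3 on leaving out 1 library, 0 being without Berkshire muscle and 1 without Berkshire liver. The share of all tested genes called in either direction also depended on the settings. Between liver and fat it was 28.7%, with 50.4% by total counts, 22.7% without a filter and 27.4% without the breed term. Between muscle and fat it was 16.4%, with 43.6% by total counts. Between liver and muscle it was 35.9%, with 34.3% without the breed term. For breed, the contrast that chose the genes, the number of the 10 called is no sign of stability. It was 10, and 3 to 10 on leaving out 1 library, 3 being without Berkshire muscle (ENSSSCG00000030790, ENSSSCG00000016063 and ENSSSCG00000004665). All tested genes called for breed numbered 15, but 94 with DESeq2, 87 without a filter and 16 to 83 on leaving out 1 library.

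IDs near-absent in Korean native libraries numbered 5, but 9 with at least 2 CPM and 2 with at least 10 CPM in Berkshire, and 5 to 6 on leaving out 1 library. Those near-absent in Berkshire libraries numbered 1, but 5 with at least 2 CPM, 0 with at least 10 CPM and 2 with CPM on total counts. Leaving out 1 library gave 1 to 2, the 2 being without any of the Korean native libraries. The 28 pairs of gene and tissue at least 4-fold apart stayed 28 under both other scalings. The cause of these shifts was not tested. A fit without 1 library has a tissue with 1 library, which is assumed to vary like the others. Breed is already a term of the tissue tests, and both liver comparisons lost their calls without it, as given above. No paired analysis was possible because, beyond that term, each breed and tissue has 1 library.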

Other observations

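The 5 genes called for breed besides the 10 differed among themselves in where they were counted. PCK1, a gluconeogenic enzyme, had 11689 counts in Berkshire liver and 1774 in Korean native liver. ENSSSCG00000023684 had 1793 counts in Berkshire liver and 46 in Korean native liver. ENSSSCG00000000419 had 151, 281 and 126 counts in Berkshire fat, liver and muscle and 6, 27 and 12 in Korean native. ENSSSCG00000021391 had 1, 0 and 0 counts in Berkshire and 141, 71 and 4 in Korean native, and ENSSSCG00000031039 had 13, 2 and 2 against 288, 27 and 41.

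Some genes that edgeR did not call had counts as one-sided as the called ones. ENSSSCG00000021574 and ENSSSCG00000023383, at 0 in all Berkshire libraries with 138 and 127 counts in Korean native, were not among the 15 called genes, whereas ENSSSCG00000030298 was. ENSSSCG00000027712, also at 0 in Berkshire, had 4, 23 and 80 counts in Korean native fat, liver and muscle, highest in muscle, unlike any of the 10. MMRN2 was the only named gene of the 14 at 0 in a whole breed.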
